A study of Mus musculus with 4 samples.

Results

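The genes described here code for the subunits of voltage-gated sodium (Nav) and calcium (Cav) channels. They were taken by symbol: every gene starting with *Cacna*, *Cacnb* or *Cacng*, and every *Scn* gene with a digit and a final a or b. That rule gave 40 genes, of which 37 were listed in the count table among 16339 genes, and 35 were high enough to be tested among 14344. The samples were hypothalami of male C57BL/6 mice kept for 12 weeks on a western diet (WD) made up of a diet with 60% fat and a drink of 30% sucrose. WT WD were wild-type mice and *Tas1r3*-/- WD, the knockouts, were mice that lacked *Tas1r3*, the taste receptor subunit shared by the sweet and umami receptors, in every cell of the body. The knockout was conventional and had been backcrossed to C57BL/6, and the wild-type mice were littermate controls matched in age and weight. The mice were 8 weeks old when the diet began. Each group had 2 libraries, made from poly(A) RNA depleted of ribosomal RNA, and all 4 libraries came from WD-fed mice. The study gives more mice per group than there are libraries here. Whether a library stands for 1 mouse is not given in the labels, so the p-values below measure the spread between these libraries, which may be technical.

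A voltage-gated channel opens when the membrane is depolarised. The pore of a Nav channel carries the rising phase of the action potential, and small Nav beta subunits anchor the pore and tune its gating. The Cav pore admits calcium for transmitter and peptide release, pacemaking and transcription, with beta and alpha2delta subunits that bring it to the membrane, while several gamma genes are better known as partners of AMPA-type glutamate receptors. In the hypothalamus these channels set the firing of neurons that release neuropeptides and hormones.

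Library totals were 5917470 and 6177210 estimated counts for the WT libraries, and 6273772 and 5874782 for the knockouts. Levels are given as CPM, each gene's count scaled to the size of its library, after TMM normalization. Where a gene has no count, up to 3 counts remain possible by counting error alone. Scaled to the named counts of each library, without TMM, that is 0.485 to 0.524 CPM. *Tas1r3*, the deleted gene, had 35.3 and 27 estimated counts in WT mice, beside 7 and 7.01 in the knockouts. The groups did not overlap (log2 fold change -2.13, SE 0.42, edgeR adjusted p = 0.756), and the value was -2.33 without WT WD replicate 2.

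The library labelled WT WD replicate 2 went against its tissue label. The 18 hypothalamic markers had a sum of 2235 CPM in WT WD replicate 1, 81.3 in replicate 2, and 1616 and 1562 in the knockouts. All 17 of them that could be tested were lowest in WT WD replicate 2, where *Pmch*, the melanin-concentrating hormone gene and the most abundant of the list, had 6.66 CPM against 768 in replicate 1 and 373 and 559 in *Tas1r3*-/- WD. *Nr5a1*, which defines the ventromedial nucleus, had 0 counts in that library. The 10 thalamic markers ran the other way, with 328, 2609, 362 and 533 CPM in WT WD replicates 1 and 2 and *Tas1r3*-/- WD replicates 1 and 2, and all 10 were highest in WT WD replicate 2. The most abundant of them was *Amotl1*, at 194, 428, 180 and 208 CPM in the same order. *Prkcd*, a protein kinase C gene of thalamic relay neurons, had the largest absolute log2 fold change of this list. It had 585 CPM in WT WD replicate 2 and 10.7, 15.8 and 41.6 CPM in the other libraries. *Tnnt1*, a troponin gene of the same list, had 0 counts in WT WD replicate 1. The 6 choroid plexus markers summed to 58.7, 762, 51.6 and 39.7 CPM in that order, with 678 CPM of *Ttr*, the transthyretin gene, in WT WD replicate 2. Among the knockouts it was the list of 8 pituitary markers that stood out, in replicate 1, with 1456 CPM against 14.6, 2.2 and 4.6 in the others, led by *Gh*, the growth hormone gene, at 762 CPM, while *Gh*, *Prl*, *Cga* and *Tshb* had 0 counts in WT WD replicate 2. In bulk tissue, fewer cells of a type and less RNA per cell cannot be told apart. Subfamily medians and the channel genes given in every library are therefore reported with and without WT WD replicate 2. So are the numbers, over all channel genes, of those called or without overlap. Most other counts, among them those of transcripts, transcript shares and partner genes, use all 4 libraries. The part that tissue content had in these values was not tested.

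**Figure D1:**
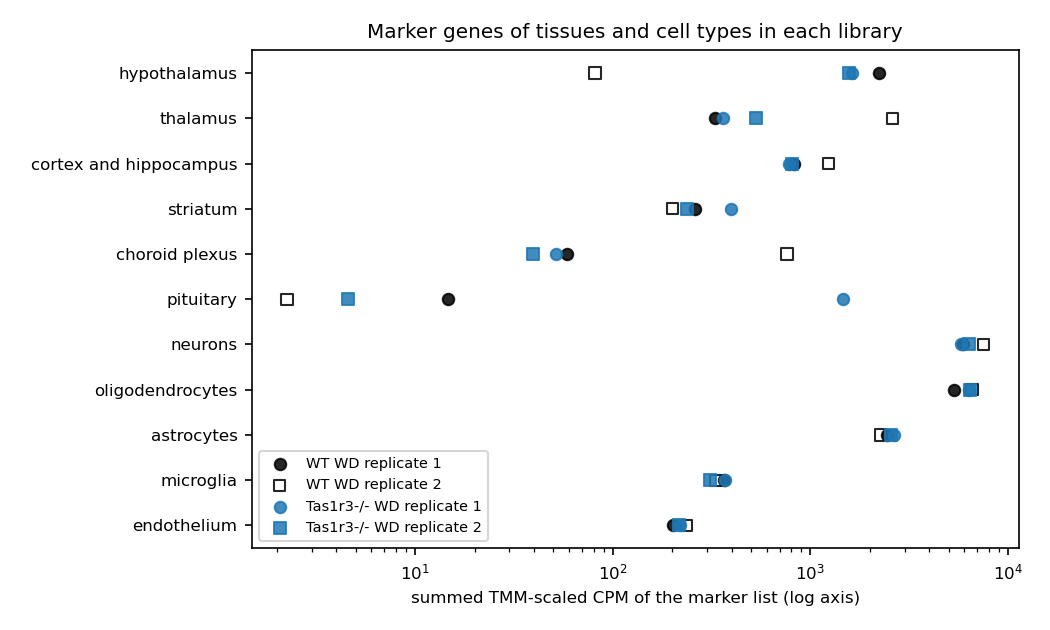
Summed CPM (log axis) of marker genes for tissues and cell types, with 1 symbol for each of the 4 libraries. WT WD replicate 2, the open square, lies at 81.3 CPM for hypothalamic and 2609 CPM for thalamic markers, away from the other 3 libraries, and *Tas1r3*-/- WD replicate 1 lies at 1456 CPM for pituitary markers.

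No channel gene changed between the genotypes past the threshold. With all 4 libraries, 0 of the 35 channel genes had an adjusted p under 0.05 with at least a 1.5-fold change in edgeR's quasi-likelihood test, and the background was 0 of 14344 genes (0%). At an unadjusted p under 0.05 there was 1 channel gene, *Cacna2d4*, where 772 of all genes (5.38%) passed. DESeq2 called 8 genes, of which 0 were channel genes. The median log2 fold change was -0.03 over the channel genes and -0.01 over all genes tested. With all 4 libraries, 16 channel genes were on the higher and 19 on the lower side in *Tas1r3*-/- WD. Without WT WD replicate 2 the channel median was 0.10, so more of them lay on the higher than on the lower side. Levels of the 2 groups did not overlap for 12 of the 35 channel genes (34.3%), against a background of 39.5%. Of these, 8 were above in *Tas1r3*-/- WD, where the background was 20.6%, and 4 were below, where it was 18.9%. For a single gene, an exact permutation test of 2 libraries against 2 cannot go below a two-sided p of 0.333.

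The outcome turned on which WT WD library was used. Against WT WD replicate 1 alone, 0 channel genes were called by edgeR where 32 of all genes (0.217%) were, and 4 channel genes (*Cacnb4*, *Cacng8*, *Scn1a* and *Scn4b*) passed an unadjusted p under 0.05 where 13.7% of all genes did. Against WT WD replicate 2 alone, 14 channel genes were called, 7 in each direction, where the background was 14.3%. In both fits the lone WT WD library is assumed to vary like the *Tas1r3*-/- WD libraries. The median channel gene was at a log2 fold change of 0.10 against replicate 1 and of -0.18 against replicate 2. A lone library overlaps less by construction: the groups did not overlap for 30 channel genes against WT WD replicate 1 alone, where the background was 75%, and for 35 against replicate 2 alone, where it was 82.1%. With 1 knockout library left out there were 14 such genes (replicate 1, background 59.4%) and 17 (replicate 2, background 61.9%). Without *Tas1r3*-/- WD replicate 1, the library with pituitary markers, 0 channel genes were called by edgeR and the median was -0.07.

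**Figure D2:**
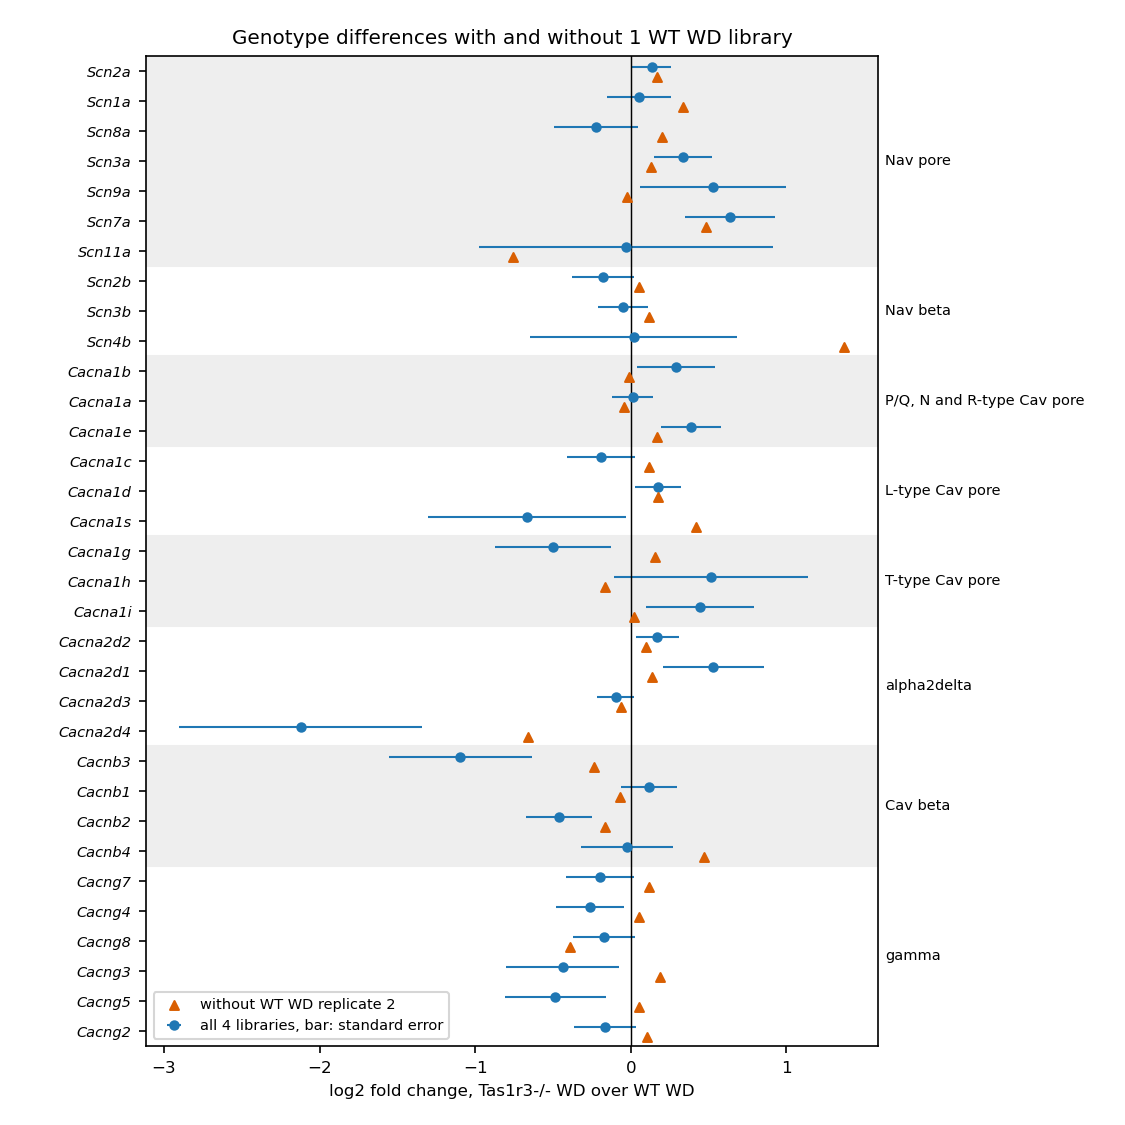
Log2 fold change of 33 tested channel genes, *Tas1r3*-/- WD over WT WD, by subfamily. Circles with standard errors use all 4 libraries and triangles leave out WT WD replicate 2; most triangles lie nearer to 0 than their circles, and that of *Scn4b* moves from 0.02 to 1.37.

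The 35 channel genes were pulled further apart between the WT WD libraries than most genes were. Their median absolute log2 difference was 0.57 between the WT WD libraries, beside 0.29 for all genes, and 0.10 between the *Tas1r3*-/- WD libraries, beside 0.15 for all genes. Between WT WD replicate 1 and the *Tas1r3*-/- WD libraries it was 0.15 and 0.17, beside 0.198 and 0.196 for all genes, and so larger than between the *Tas1r3*-/- WD libraries and smaller than between the WT WD libraries. A difference of at least 1.5-fold separated 17 channel genes (48.6%) between the WT WD libraries, where the share of all genes was 23.99%, and 2 (5.71%) between the *Tas1r3*-/- WD libraries, where it was 8.30%. WT WD replicate 2 was the highest library for 19 channel genes and the lowest for 15, together 97.1% of them, against 68.4% of all genes tested. Only *Scn2a* lay within the range of the other 3 libraries. Such a spread was not particular to channel genes. The same median difference between the WT WD libraries was 0.71 for neuronal markers and 0.72 for genes of calcium release and removal. It was 0.60 for partners of Cav channels and 0.56 for the other cation channel genes. Lower values were those of Nav channel partners (0.27), the NALCN list (0.27) and the AMPA receptor list (0.32).

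**Figure D3:**
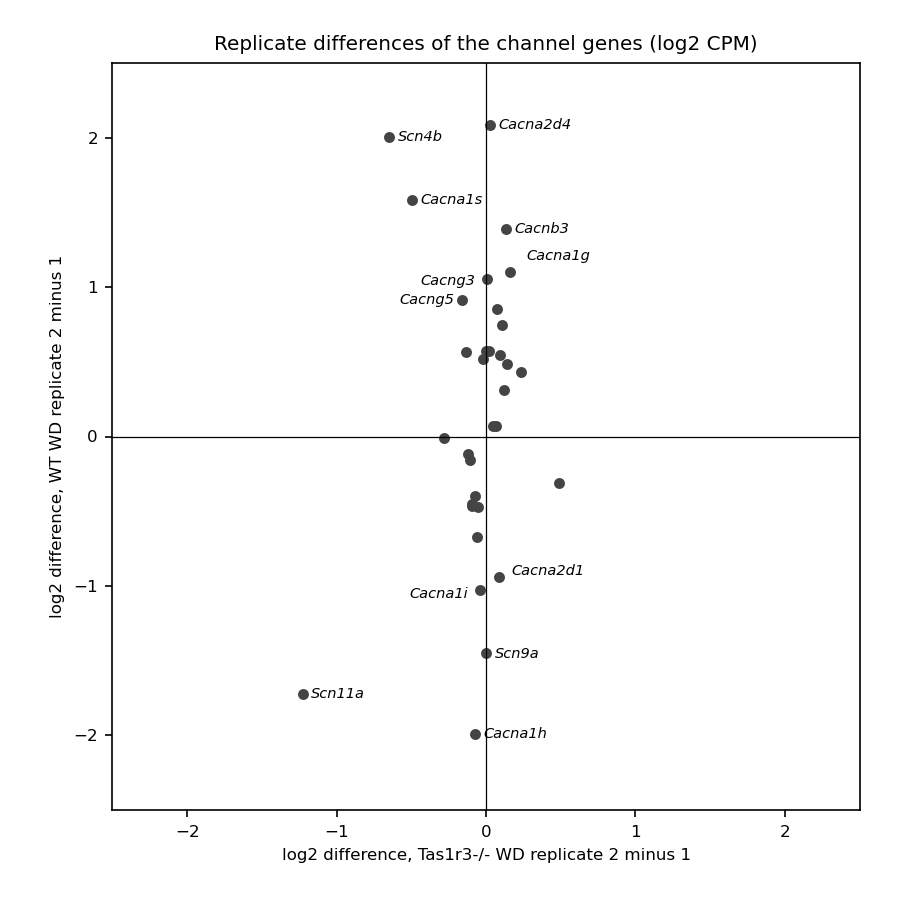
Log2 difference in CPM between replicates 2 and 1 for 33 tested channel genes, in *Tas1r3*-/- WD (horizontal) and WT WD (vertical). The points spread along the vertical axis, from -1.99 for *Cacna1h* to 2.09 for *Cacna2d4*, and stay near 0 on the horizontal axis except for a few genes such as *Scn11a*.

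Levels between genes can be compared per kilobase of transcript. On that scale *Cacnb3*, with a mean of 70.9 CPM per kilobase over the 4 libraries, and *Scn2b*, with 67.9, were among the highest channel genes. The SD over libraries of *Cacnb3*, 46.1, exceeds the gap between them, so their order is not settled. *Cacng7* with 44.4, *Cacng4* with 42.4 and *Scn3b* with 36.7 were lower, all of them small accessory subunits. Among pore genes *Cacna1g* had a mean of 31.4 and *Scn2a* of 28.2. Their order is not settled either: WT WD replicate 2 held 50.2 CPM per kilobase of *Cacna1g*, and in each of the other 3 libraries *Scn2a* was the higher of the pair. The lowest gene tested was *Scn11a* with 0.244 CPM per kilobase.

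**Figure D4:**
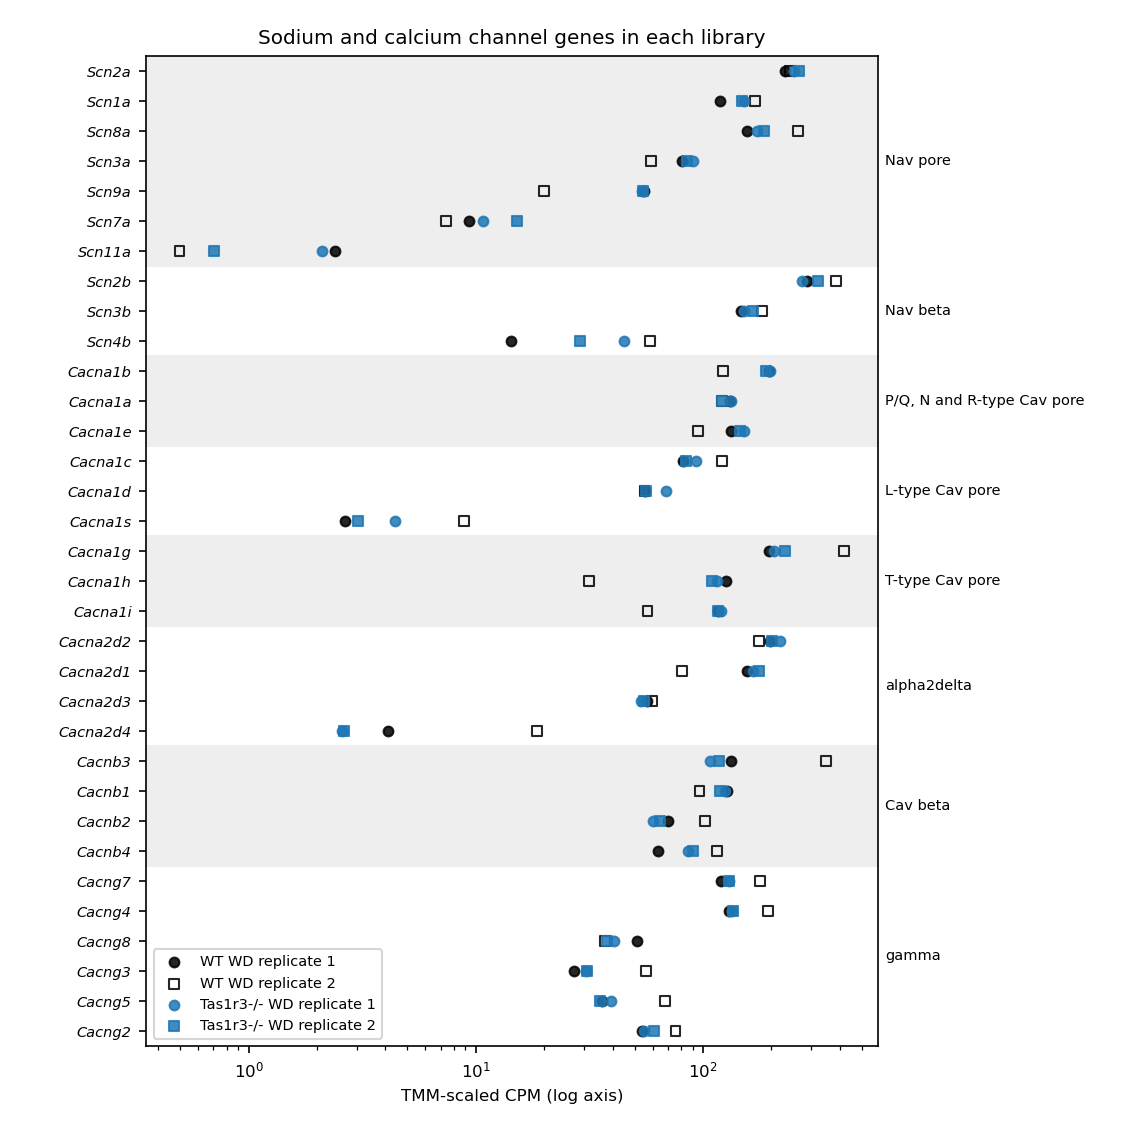
CPM (log axis) of 33 tested channel genes in the 4 libraries, by subfamily and ordered within it by level per kilobase. WT WD replicate 2, the open square, lies apart from the other symbols for many genes, among them *Cacna1h* at 31.5 CPM and *Cacnb3* at 347 CPM, and together with them for *Scn2a*.

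Channel transcripts are long, and fold changes moved with length over all genes. The 13958 tested genes with a known transcript length were split by it into 4 bins of like size. From shortest to longest, the median log2 fold change was -0.13, -0.04, 0.02 and 0.13. Of the 35 channel genes, 23 were in the longest bin and 1 in the shortest. With the trend on length removed from each library, the median of the channel genes was -0.13 and that of all genes -0.02, and the groups did not overlap for 7 channel genes (background 35.7%).

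Of the 10 Nav pore genes, 8 were listed and tested. *Scn4a*, the skeletal muscle channel, and *Scn10a*, a channel of sensory neurons, had no transcript in the table. *Scn3a*, *Scn2a*, *Scn1a*, *Scn9a* and *Scn7a* lie in a cluster within GRCm39 chr2:65287462-66615367. WT WD replicate 2 was the lowest library for *Scn3a*, *Scn9a* and *Scn7a*, the highest for *Scn1a*, and within the others' range for *Scn2a*. *Scn2a* (chr2:65451102-65597795), a channel of the axons of excitatory neurons, had 229 (replicate 1) and 241 CPM (replicate 2) in WT mice against 252 and 264 CPM in knockouts. The *Tas1r3*-/- WD libraries were above both WT WD libraries by little (log2 fold change 0.13, SE 0.13, edgeR adjusted p = 0.794), and its value was 0.17 without WT WD replicate 2. With the length trend removed it was -0.06, on the other side of 0. *Scn9a*, a channel of sensory and neuroendocrine neurons, is given after its values were seen because it shares the cluster: it had 55.1 and 20.0 CPM in the replicates of WT mice and 54.1 and 54.2 CPM in those of the knockouts. WT WD replicate 2 was 0.362 times replicate 1 for *Scn9a*, while the other 3 libraries were close together, and its log2 fold change went from 0.53 to -0.03 without that library. The 250 bases before a RefSeq start of *Scn2a* and of *Scn9a* are shown for this contrast. They run 5′ to 3′ on the gene's strand, with CG dinucleotides and the letters TATAAA in capitals.
Scn2a: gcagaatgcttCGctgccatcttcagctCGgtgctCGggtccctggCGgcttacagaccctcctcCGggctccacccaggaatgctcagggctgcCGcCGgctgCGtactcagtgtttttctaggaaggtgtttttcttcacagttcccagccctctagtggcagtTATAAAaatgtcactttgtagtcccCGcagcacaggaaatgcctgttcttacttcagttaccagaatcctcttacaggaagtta
Scn9a: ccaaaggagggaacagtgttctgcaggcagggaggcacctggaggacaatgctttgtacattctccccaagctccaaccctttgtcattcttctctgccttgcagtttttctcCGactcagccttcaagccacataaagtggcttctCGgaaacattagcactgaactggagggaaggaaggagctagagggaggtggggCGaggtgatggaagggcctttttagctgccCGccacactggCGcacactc
The *Scn2a* stretch is chr2:65498780-65499029 on the plus strand, is the second of 2 RefSeq starts, and holds 9 CG dinucleotides and TATAAA from 84 bases before the start. This start was picked because its window holds TATAAA, so its presence here was set by that choice. The *Scn9a* stretch is chr2:66465307-66465556 on the minus strand and holds 5 CG dinucleotides and no TATAAA. Both lie outside annotated exons on GRCm39.

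Of the other pore genes, *Scn1a*, the channel of inhibitory neurons, had a log2 fold change of 0.05, *Scn3a* of 0.34, *Scn8a*, the channel of the axon initial segment, of -0.22, *Scn7a*, a sodium sensor, of 0.64, and *Scn11a* of -0.03. Without WT WD replicate 2 the *Scn8a* value was 0.20, on the other side of 0, that of *Scn1a* was 0.34, that of *Scn3a* 0.13, that of *Scn7a* 0.48 and that of *Scn11a* -0.76. The *Scn7a* value was 0.36 without *Tas1r3*-/- WD replicate 2. With the length trend removed, *Scn1a* was at -0.13, *Scn3a* at 0.11, *Scn8a* at -0.50, *Scn7a* at 0.49 and *Scn11a* at -0.12. The median over the 8 pore genes was 0.23 with all libraries, 0.19 without WT WD replicate 2 and 0.03 with the length trend removed.

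The 4 Nav beta genes were all tested. *Scn2b* (chr9:45029080-45041368), whose product is disulfide-linked to the pore, is given after its values were seen. It had 286 and 386 CPM in the WT libraries, beside 272 and 321 CPM in the knockouts. WT WD replicate 2 was the highest library, and the knockouts fell on either side of WT WD replicate 1. The log2 fold change was -0.18 (SE 0.20, edgeR adjusted p = 0.819) and 0.05 without WT WD replicate 2. *Scn3b*, whose product binds the pore without a covalent link, was at -0.05, and at 0.11 without WT WD replicate 2. The subfamily median was -0.11, 0.08 without WT WD replicate 2 and -0.15 with the length trend removed.

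*Scn4b*, whose product drives resurgent sodium current, varied in both genotypes and is given after its values were seen. It had 14.3 and 58.3 CPM in the replicates of WT mice and 45.0 and 28.6 CPM in those of the knockouts. The 2 WT WD libraries were the lowest and the highest of the 4. With all libraries its log2 fold change was 0.02 with an SE of 0.66, and without WT WD replicate 2 it was 1.37 (edgeR adjusted p = 0.0992). *Scn4b* lies 8.226 kb from *Scn2b* on chromosome 9, and WT WD replicate 2 was 1.35 times replicate 1 for *Scn2b* and 4.08 times for *Scn4b*.

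The P/Q-, N- and R-type Cav pores, which trigger transmitter release, are coded by *Cacna1a*, *Cacna1b* and *Cacna1e*, and all 3 were lowest in WT WD replicate 2. *Cacna1b* (chr2:24493899-24653221), the N-type pore, had 195 and 122 CPM in the WT libraries, beside 198 and 190 CPM in the knockouts. *Tas1r3*-/- WD fell on either side of WT WD replicate 1. The log2 fold change of 0.29 (SE 0.25, edgeR adjusted p = 0.777) was -0.01 without WT WD replicate 2. With the length trend removed it was 0.06. *Cacna1e* (chr1:154266477-154760247), the R-type pore, had 132 (replicate 1) and 95.1 CPM (replicate 2) in WT mice against 151 and 146 CPM in knockouts. Its groups did not overlap (log2 fold change 0.39, SE 0.19, edgeR adjusted p = 0.756), and its value was 0.17 without WT WD replicate 2 and 0.04 with the length trend removed. *Cacna1a*, the P/Q-type pore, was at 0.01, but at -0.04 without WT WD replicate 2 and -0.19 with the length trend removed. The median of these 3 pores was 0.29, -0.01 without WT WD replicate 2 and 0.04 with the length trend removed.

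The L-type pores carry long-lasting currents that couple firing to transcription. *Cacna1c* (chr6:118564201-119173851), the main L-type pore of brain and heart, had 81.6 and 121 CPM in the replicates of WT mice and 92.7 and 84.5 CPM in those of the knockouts. The log2 fold change was -0.19 (SE 0.22, edgeR adjusted p = 0.823) and 0.12 without WT WD replicate 2. *Cacna1d*, the pacemaking L-type pore, was at 0.17. Its value was 0.02 without *Tas1r3*-/- WD replicate 1, 0.30 without replicate 2 of that group and 0.04 with the length trend removed. *Cacna1s* (chr1:135980259-136047560), the skeletal muscle pore, was low, with 2.66 and 8.90 CPM in the WT libraries, beside 4.39 and 3.02 CPM in the knockouts. Its highest library was WT WD replicate 2, and its value went from -0.67 (SE 0.63, edgeR adjusted p = 0.796) to 0.42 without that library. *Cacna1f*, the retinal pore, was too low to be tested, with a total of 18.2 estimated counts over the 4 libraries. The median of the 3 tested L-type pores was -0.19, 0.17 without WT WD replicate 2 and -0.31 with the length trend removed.

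The T-type pores open near rest and support burst firing, for which thalamic neurons are the textbook case. *Cacna1g* (chr11:94299217-94365230) had 195 (replicate 1) and 418 CPM (replicate 2) in WT mice against 205 and 229 CPM in knockouts. *Cacna1h* (chr17:25593259-25652764) had 126 and 31.5 CPM in the replicates of WT mice and 115 and 110 CPM in those of the knockouts. *Cacna1i*, given after its values were seen, had 117 and 57.0 CPM in the WT libraries, beside 120 and 116 CPM in the knockouts. So within 1 subfamily WT WD replicate 2 held 2.15 times the *Cacna1g*, 0.250 times the *Cacna1h* and 0.489 times the *Cacna1i* level of replicate 1, while the summed T-type level was 437, 507, 440 and 455 CPM. The log2 fold changes were -0.50 (SE 0.37) for *Cacna1g*, 0.51 (SE 0.62) for *Cacna1h* and 0.45 (SE 0.35) for *Cacna1i*, with edgeR adjusted p of 0.770, 0.834 and 0.774. Without WT WD replicate 2 they were 0.15, -0.17 and 0.02. The T-type median was 0.45 with all libraries, 0.02 without that library and 0.22 with the length trend removed.

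The alpha2delta subunits carry the pore to the membrane and bind gabapentin-type drugs in the case of *Cacna2d1* and *Cacna2d2*. *Cacna2d2* (chr9:107276811-107406543) was the highest of the 4 per kilobase and had 197 (replicate 1) and 176 CPM (replicate 2) in WT mice against 218 and 202 CPM in knockouts (log2 fold change 0.17, SE 0.14, edgeR adjusted p = 0.774). The groups did not overlap, but the value was 0.10 without WT WD replicate 2 and 0.09 with the length trend removed. *Cacna2d4* (chr6:119213408-119329368), best known from the retina, was the only channel gene with an unadjusted p under 0.05 in edgeR. It had 4.12 and 18.6 CPM in the replicates of WT mice and 2.57 and 2.63 CPM in those of the knockouts, and both *Tas1r3*-/- WD libraries were below both WT WD libraries. The log2 fold change was -2.12 (SE 0.78, edgeR adjusted p = 0.756) and -0.66 without WT WD replicate 2, where its unadjusted p was 0.242. *Cacna2d4* overlaps *Lrtm2*, a leucine-rich repeat gene, which had 111, 265, 109 and 116 CPM in the same order of libraries. As the strand used in counting is not given in the sources used here, reads of overlapping genes may not have been told apart. *Cacna2d1* had 155 and 80.9 CPM in the WT libraries, beside 165 and 176 CPM in the knockouts and is given after its values were seen. Its log2 fold change was 0.53 and 0.13 without WT WD replicate 2. *Cacna2d3* was at -0.10, and at -0.06 without WT WD replicate 2. The groups did not overlap for any of the 4 genes, with 2 above and 2 below in *Tas1r3*-/- WD, where the background was 39.5% in either direction. The subfamily median was 0.04 with all libraries, 0.02 without WT WD replicate 2 and -0.02 with the length trend removed.

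The beta subunits sit inside the cell and protect the Cav pore from degradation. *Cacnb3* (chr15:98528721-98542417) was the highest of the 4 per kilobase and had the largest change. It had 132 (replicate 1) and 347 CPM (replicate 2) in WT mice against 107 and 117 CPM in knockouts. Both *Tas1r3*-/- WD libraries lay below WT WD, yet WT WD replicate 2 was 2.62 times replicate 1. The log2 fold change was -1.09 (SE 0.46, edgeR adjusted p = 0.756) and -0.24 without WT WD replicate 2. *Cacnb2* was at -0.46, with *Tas1r3*-/- WD below WT WD, *Cacnb1* at 0.12 and *Cacnb4* at -0.02. Without WT WD replicate 2, *Cacnb2* was at -0.16 and *Cacnb1* at -0.07, and *Cacnb4* had a log2 fold change of 0.47 (edgeR adjusted p = 0.135). The subfamily median was -0.24, -0.12 without WT WD replicate 2 and -0.36 with the length trend removed. Summed beta subunit RNA was 393, 660, 378 and 390 CPM.

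Of the 8 gamma genes, 7 were listed and 6 tested. *Cacng6*, a muscle gene, had no transcript in the table, and *Cacng1*, the skeletal muscle gamma subunit, had a total of 12.0 estimated counts. The other 6 code for proteins that associate with AMPA receptors, and all 6 had a negative log2 fold change with all libraries, from -0.49 to -0.16. *Cacng7* (chr7:3380237-3416738) had 120 and 179 CPM in the replicates of WT mice and 130 and 130 CPM in those of the knockouts (log2 fold change -0.20, SE 0.22, edgeR adjusted p = 0.819). *Cacng5* (chr11:107765431-107811030) had 35.9 and 68.1 CPM in the WT libraries, beside 39.2 and 35.1 CPM in the knockouts (log2 fold change -0.49, SE 0.32, edgeR adjusted p = 0.760). In both genes WT WD replicate 2 was high, and the other 3 libraries lay close together. Without WT WD replicate 2 the values were 0.12 and 0.05, 5 of the 6 genes had a positive one, and the subfamily median went from -0.23 to 0.08. *Cacng8* was the exception, at -0.17 with all libraries and -0.39 without WT WD replicate 2 (edgeR adjusted p = 0.284). *Cacng2*, the stargazin gene, was at -0.16, *Cacng3* at -0.44 and *Cacng4* at -0.26. With the length trend removed the subfamily median was -0.25.

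Many channel genes are spliced in several forms. The table listed 96 RefSeq transcripts of channel genes, of which 90 were tested and 0 called (lowest adjusted p 0.939 in edgeR), with 10 at an unadjusted p under 0.05 where the background was 4.59%. Of the 81 variants of the 22 channel genes with at least 2 listed transcripts, 30 had a share of their gene (37.0%) that did not overlap between the groups, where the background was 32.8%. The beta subunit genes *Cacnb2* and *Cacnb4* are given after their values were seen. The *Cacnb2* transcript NM_023116 made up 16.5% and 5.11% of the gene in WT mice but 38.7% and 29.9% in knockouts. NM_001309519 made up 76.6% and 83.1% in WT mice but 56.5% and 53.8% in knockouts. The *Cacnb4* transcript NM_146123 made up 45.9% and 28.1% in WT mice but 22.2% and 21.6% in knockouts. In these examples both WT WD libraries were on the same side of both *Tas1r3*-/- WD libraries, with adjusted p of 0.939 for each transcript in edgeR. The variants of a gene share most of their sequence, so how the counting divided reads among them is uncertain.

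**Figure D5:**
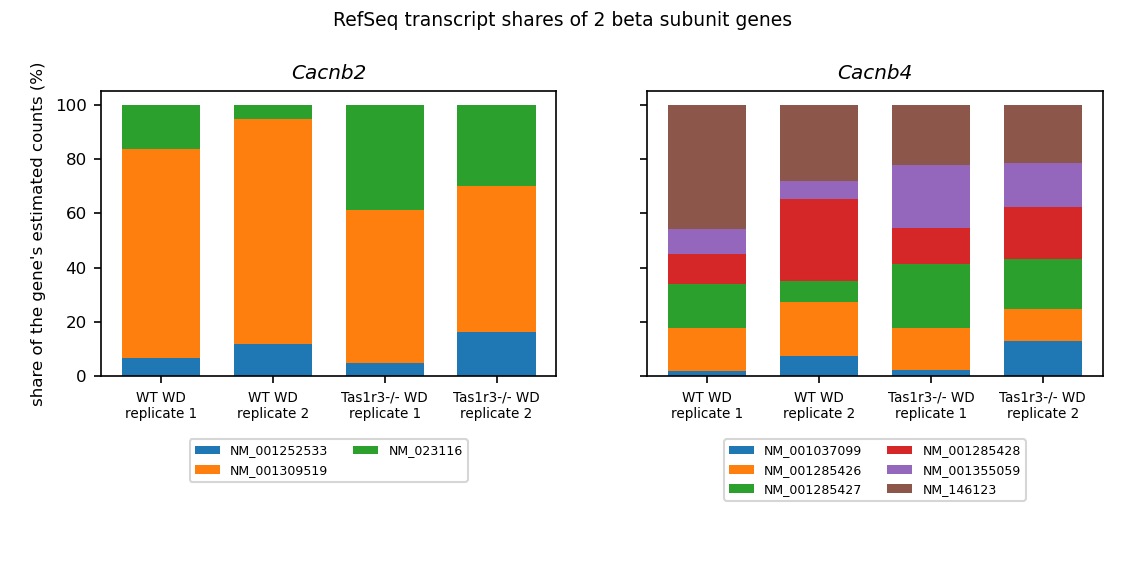
Share of each RefSeq transcript in the estimated counts of *Cacnb2* and *Cacnb4* (%), with 1 stacked bar for each library. NM_023116 of *Cacnb2* takes 38.7% and 29.9% in *Tas1r3*-/- WD against 16.5% and 5.11% in WT WD, and NM_146123 of *Cacnb4* takes 22.2% and 21.6% against 45.9% and 28.1%.

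RefSeq promoter windows (GRCm38.p6, 250 bases before to 50 after a start) were given for 30 of the 40 genes, as 41 windows. They held a median of 9 CG dinucleotides, where all 32851 windows of the table held 7. The cAMP response element TGACGTCA, searched on both strands, was in 0 of the 41 windows and in 1.79% of all windows. Its shorter form TGACG, which lies within it, was in 6 of the 41 (14.6%) and in 20.8% of all. TATAAA was in 2 of the 41 (4.88%), those of *Cacna1d* and *Scn2a*, and in 13.6% of all.

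Partners of the channels were measured in the same way, and edgeR called 0 genes in each of the 6 lists. Of 18 genes whose products bind Nav channels or build their axonal sites, 3 had an unadjusted p under 0.05, where the background was 5.38% for this and the other lists, with a list median of 0.10, or -0.12 with the length trend removed. These were *Ank3*, ankyrin-G, which holds Nav channels at the axon initial segment, *Ank2*, another ankyrin of neurons, and *Fgf11*, an intracellular fibroblast growth factor homologue. *Ank3* had 223 (replicate 1) and 215 CPM (replicate 2) in WT mice against 288 and 267 CPM in knockouts (log2 fold change 0.34, SE 0.13), and *Ank2* had 514 and 464 against 692 and 603 CPM (0.41, SE 0.14). *Fgf11* had 20.3 and 15.2 against 28.4 and 27.5 CPM (0.66, SE 0.20). These genes were on the same side without WT WD replicate 2, at 0.32, 0.34 and 0.47. The largest change was that of *Tnc*, an extracellular matrix gene, at -1.59, and at -0.38 without WT WD replicate 2.

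Of 21 partners of Cav channels, 19 were tested, with 4 at an unadjusted p under 0.05, beside the background of 5.38%. Their median was -0.12 with all libraries and 0.18 without WT WD replicate 2, on the other side of 0. *Stx1a*, the syntaxin that binds presynaptic Cav channels, had 80.7 and 90.5 CPM in the replicates of WT mice and 57.5 and 64.5 CPM in those of the knockouts (log2 fold change -0.49, SE 0.14). *Rrad*, a small GTPase that restrains Cav channels, had 10.3 and 2.14 against 18.0 and 36.6 CPM (2.13, SE 0.75). The other 2 were *Stac2*, a channel adaptor, at 0.58 (0.32 without WT WD replicate 2), and *Akap6*, a kinase anchor, at 0.37. *Snap25*, the most abundant, was at -0.38. Without WT WD replicate 2, *Stx1a* was at -0.40 and *Rrad* at 1.40, while *Snap25* was at 0.08, on the other side of 0.

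In the list of the NALCN sodium leak channel, 4 of the 7 gene symbols searched for were tested. Of these, 0 had an unadjusted p under 0.05 in edgeR (median 0.22), with *Unc80*, the most abundant, at 0.26 and *Fam155a* at -0.35. The median was 0.14 without WT WD replicate 2 and -0.02 with the length trend removed, and *Unc80* was at 0.44 without that library. Of 18 genes for calcium release and removal, 17 were tested and 0 had an unadjusted p under 0.05 (median -0.15), with the pump gene *Atp2a2* at -0.37 and the release channel *Ryr1* at 0.93. Both the median, at 0.17, and *Atp2a2*, at 0.16, lay on the other side of 0 without WT WD replicate 2, and *Ryr1* was at 0.21. All 11 AMPA receptor genes other than the gamma genes were tested and 1 had an unadjusted p under 0.05 (median -0.11), the auxiliary subunit *Cnih3* at -0.50, while *Gria1* was at 0.12 and *Shisa6* at -0.85. These 3 genes were at -0.47, -0.03 and -0.14 without WT WD replicate 2, and the list median was -0.14. Of 13 other cation channel genes, 7 were tested and 1 had an unadjusted p under 0.05 (median -0.23), the lysosomal channel *Tpcn1* at -0.49, while the pacemaker channel *Hcn2*, the most abundant, was at -0.26. Leaving out WT WD replicate 2 brought the median to -0.0040 and *Hcn2* to -0.0057. No partner named here had an adjusted p under 0.756 in edgeR.

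In their sums, markers of neurons differed less between the libraries than those of brain regions. The neuronal list summed to 5920, 7528, 5800 and 6348 CPM in WT WD replicates 1 and 2 and *Tas1r3*-/- WD replicates 1 and 2, with *Syp*, a synaptic vesicle gene, as its most abundant member. Within it, the GABA synthesis gene *Gad1* had 402, 46.1, 412 and 422 CPM, and the glutamate transporter gene *Slc17a6* had 208, 529, 218 and 231 CPM. WT WD replicate 2 was thus the lowest library for the first and the highest for the second. Of the 13 neuronal markers, that library was the highest for 9 and the lowest for 3. Their median absolute log2 difference between the WT WD libraries was 0.71, beside 0.29 for all genes. Glial and vascular lists lay closer together, with oligodendrocyte markers at 5298, 6583, 6315 and 6420 CPM and astrocyte markers at 2441, 2268, 2656 and 2566 CPM. The part of these differences in the channel values was not tested.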

How the data were processed

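RNA from 4 hypothalamus libraries was sequenced on an Ion Torrent platform by the authors. According to the study's methods and the submitters' processing notes, the authors used Partek Flow, in which STAR mapped the reads to mm39 and RefSeq transcripts were quantified. The deposited values are estimated counts for each transcript and library, not normalized and mostly not whole (13.1% whole within 1e-09), with a total of at least 10 counts for each of 30930 transcripts. They were summed to genes by RefSeq accession (30891 transcripts named, 39 left out) and rounded. The 39 hold 0.347% to 2.49% of a library. Library totals of named genes were 5801550, 6155764, 6180137 and 5728729.

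The genotypes were compared with the quasi-likelihood test of edgeR 4.0.16 in R 4.3.3, using TMM and filterByExpr, over 14344 genes, with Benjamini-Hochberg adjustment over all of them. A call needed a 1.5-fold change as well as an adjusted p under 0.05. The common biological coefficient of variation was 0.227. Alternatives were DESeq2 1.42.0, which the study's methods name, limma 3.58.1, other scalings and filters, an offset for transcript length (loess span 0.3), a replicate block and each library left out in turn. The fold changes with a library left out were planned, and the edgeR test on them was added after the data were seen. Coordinates and canonical transcript lengths are from GENCODE on GRCm39, and promoter sequences from RefSeq were matched to GRCm39. The fits were checked on simulated counts. Figures were drawn with matplotlib 3.10.9.

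The channel genes, marker lists, partner lists and tests were chosen with earlier results of these data known. Genes given with values in every library were, in each subfamily, the highest per kilobase and the one with the largest absolute log2 fold change, and any with an unadjusted p under 0.05. Those said to be given after their values were seen fall outside this rule. Some genes that this rule names are not reported here, though they stay in the counts and medians.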

Additional observations from a re-analysis of the deposited data

How the results depend on the processing

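No channel gene was called under RLE size factors, total counts, DESeq2, limma-trend, other filters on low counts, an adjusted p alone, the same test on transcripts, the length offset, or the replicate block, and DESeq2 called 8 genes in all. The median log2 fold change of the channel genes lay between -0.18 and 0.10 over all settings. The 4 libraries do not separate genotype from the tissue content of WT WD replicate 2. Leaving out 1 library at a time gave 0 to 2122 genes called, with 2122 against WT WD replicate 2 alone and 32 against replicate 1 alone. It gave 0 to 14 channel genes called and 14 to 35 channel genes without overlap between the groups, where a group of 1 library overlaps less by construction. There were 35 without WT WD replicate 1, where the share of all genes was 82.1%, and 30 without replicate 2, where it was 75%. Without *Tas1r3*-/- WD replicate 1 there were 14 (all genes 59.4%), and 17 without its replicate 2 (61.9%). The length offset gave 7 such genes, where the share of all genes was 35.7%, and the cause was not tested.

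The log2 fold changes below changed sign when 1 library was left out, and are given as lowest to highest over the 4 omissions: *Cacna1a* -0.050 to 0.076, *Cacna1b* -0.0086 to 0.67, *Cacna1c* -0.44 to 0.12, *Cacna1g* -0.94 to 0.15, *Cacna1h* -0.17 to 1.84, *Cacna1s* -1.27 to 0.42, *Cacnb1* -0.070 to 0.34, *Cacnb4* -0.38 to 0.47, *Cacng2* -0.38 to 0.10, *Cacng3* -0.87 to 0.19, *Cacng4* -0.51 to 0.055, *Cacng5* -0.87 to 0.050, *Cacng7* -0.45 to 0.12, *Cacng8* -0.39 to 0.086, *Scn11a* -1.02 to 1.48, *Scn1a* -0.18 to 0.34, *Scn2b* -0.37 to 0.052, *Scn3b* -0.19 to 0.11, *Scn4b* -0.65 to 1.37, *Scn8a* -0.54 to 0.20, *Scn9a* -0.026 to 1.45. Others kept their sign but moved by over 1.5 times, with these ranges: *Cacna1d* 0.024 to 0.30, *Cacna1e* 0.17 to 0.65, *Cacna1i* 0.020 to 1.06, *Cacna2d1* 0.13 to 1.08, *Cacna2d2* 0.096 to 0.26, *Cacna2d3* -0.13 to -0.063, *Cacna2d4* -2.82 to -0.66, *Cacnb2* -0.70 to -0.16, *Cacnb3* -1.62 to -0.24, *Scn3a* 0.13 to 0.58, *Scn7a* 0.36 to 0.87. Without leaving out a library, the sign also changed under the length offset for *Cacna1a* (-0.19), *Scn1a* (-0.13), *Scn2a* (-0.062) and *Scn4b* (-0.037), and under limma-trend for *Cacnb4* (0.039) and *Scn11a* (0.072).

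Same-numbered libraries deviated from their group means with a correlation of 0.0821 over 14344 genes, so the numbers were not taken to pair the libraries. With a replicate block edgeR called 0 genes (lowest adjusted p 0.137) and 0 channel genes, with a median of 0.01, and only *Cacnb4* (0.037) and *Scn11a* (0.025) changed sign. The length offset with the replicate block called 0 genes, and *Cacna1a* (-0.19), *Scn1a* (-0.11) and *Scn2a* (-0.062) were negative.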

Other observations

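The other lists of marker genes had these summed levels, in WT WD replicates 1 and 2 and then the knockout replicates 1 and 2. Cortical and hippocampal markers, led by the kinase gene *Camk2a*, summed to 827, 1236, 776 and 806 CPM, and *Emx1* was not listed. Striatal markers, led by *Rgs9*, a regulator of G-protein signaling, had 261, 201, 398 and 237 CPM, and cerebellar markers, led by *Grid2ip*, had 13.6, 128, 16.9 and 26.9 CPM with *Gabra6* and *Pcp2* not listed. Ependyma and tanycyte markers, led by the ciliary gene *Foxj1*, had 103, 105, 76.3 and 77.99 CPM. Oligodendrocyte precursors, led by *Olig1*, had 389, 332, 373 and 329 CPM, microglia, led by *Csf1r*, 365, 333, 369 and 312 CPM, and endothelium, led by *Flt1*, 202, 237, 220 and 217 CPM.

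Tissues outside the brain that use *Scn4a*, *Scn10a*, *Scn11a* or *Cacna1s* were hardly seen. Markers of skeletal and heart muscle, led by the actin gene *Acta1*, summed to 10.5, 10.6, 10.6 and 14.3 CPM, with *Ckm*, *Tnnt3* and *Myh1* not listed. Markers of sensory ganglia, led by *Isl1*, which hypothalamic neurons also express, had 47.8, 26.4, 46.6 and 46.5 CPM, with *Mrgprd* not listed.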
